A study of Homo sapiens with 12 samples.

Results

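RNA from OPM-1 cells given lenalidomide and the RUNX inhibitor AI-10-104 together was compared with RNA from cells given the solvent DMSO. OPM-1 is an established line of human multiple myeloma, a cancer of plasma cells, and all conditions used this 1 line. Treatment lasted 48 h, and the conditions were DMSO alone, lenalidomide at 0.1 μM (LEN), AI-10-104 at 1 μM (RUNXi) and both agents at these doses (LEN+RUNXi). Polyadenylated RNA was sequenced from 3 biological replicates of each. The comparison rests on 6 of the 12 samples, the 3 LEN+RUNXi samples and the 3 DMSO samples. The 6 samples with a single agent entered the estimate of the spread and were compared directly with LEN+RUNXi. Of 38478 genes measured, 11241 had a mean of at least 0.5 RPKM (reads per kilobase of gene length, scaled to the reads that a library had on genes) over the 12 samples and were tested. The lowest mean among the tested genes was 0.5002 RPKM and the highest among the others was 0.4999 RPKM.

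Lenalidomide binds cereblon, the substrate receptor of a ubiquitin ligase, and directs the ligase to the transcription factors IKZF1 and IKZF3, which are then degraded. RUNX factors bind DNA as partners of CBFB, and AI-10-104 is a compound made to block that partnership. Myeloma cells keep the program of secretory plasma cells, in which IRF4, PRDM1 and XBP1 are active and the machinery of MHC class II presentation is mostly turned off. Interferons act through JAK kinases, STAT factors and IRF factors on a large set of antiviral and antigen presentation genes, many of which carry an interferon-stimulated response element in their promoters. Metallothioneins are small proteins that bind zinc and copper, and their genes are switched on by the zinc sensor MTF1 at metal response elements.

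Reads counted on genes came to 21297486 to 31386210 in the DMSO samples, 19442512 to 30478783 in LEN, 22784874 to 29512562 in RUNXi and 16352548 to 20419807 in LEN+RUNXi, so the LEN+RUNXi libraries were the shallowest as a group. Read numbers and floors cover counting error only, since these reads carried no molecular identifiers. All 10 plasma cell markers were tested, from SLAMF7 at a mean of 22.9 RPKM to JCHAIN at 3285 RPKM over the 12 samples, and 0 of them were called in either direction by limma or voom (4 with an unadjusted p under 0.05). Over all 11241 genes tested, 2659 had an unadjusted p under 0.05. Of the B cell, T and NK cell and myeloid markers, 0 reached 0.5 RPKM, and the defining markers PAX5, CD3D and S100A8 had 0 reads in every sample. The summed level of the 8 B cell markers was at most 0.581 RPKM in DMSO and 0.349 RPKM in LEN+RUNXi. Among 10 stromal and epithelial markers PECAM1 alone was tested, and its level was 0.945, 0.950 and 0.932 RPKM in DMSO and 1.32, 1.41 and 1.45 RPKM in LEN+RUNXi (log2 fold change 0.52 with an SE of 0.10, limma adjusted p = 0.0093). PECAM1 encodes an adhesion molecule of the vessel lining that blood cells carry too, and the other 9 markers of that list had at most 3 reads in any sample. Whether this marker bears on other results was not tested. HBB was the sole erythroid marker tested (mean 19.8 RPKM, log2 fold change -0.01). In bulk RNA such as this, more cells with a transcript and more transcript per cell cannot be told apart.

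Treatment with both agents raised far more genes than it lowered. A gene was called at an adjusted p of at most 0.05 from limma and a log2 fold change of at least 0.32 in either direction, on the log2(RPKM + 0.1) scale that holds for every fold change given here and that understates changes of genes near 0. Relative to DMSO, 259 genes rose (2.3% of the genes tested) and 72 fell (0.641%), 331 in all (2.94%). In every one of them the 3 LEN+RUNXi samples lay beyond the 3 DMSO samples. That separation alone was common, since 2036 genes (18.1%) had all 3 LEN+RUNXi samples above DMSO and 1249 (11.1%) had them below. Most changes were small. Among the genes that rose, 13 at least doubled and 74 rose at least 1.5-fold, and the median log2 fold change was 0.47. Of the genes that fell, 7 dropped to 50% of DMSO or less on the fitted scale, 20 changed at least 1.5-fold, and the median was -0.42. The median over all genes tested was 0.02. Genes that rose had a median of 3.21 RPKM in DMSO, below the 8.50 RPKM of all genes tested and the 6.96 RPKM of the genes that fell. Of the 239 risen genes found in the annotation, 202 encode proteins and 24 are long noncoding RNAs. The shares of 2.3% risen and 0.641% fallen are the background for the counts of every gene list below.

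The share of risen genes among the called genes depended on the scaling of the samples. It was 78.2% with the deposited values and 62.0% after quantile normalization, which called 181 genes higher and 111 lower. With reads thinned to the size of the smallest library, 220 genes rose and 65 fell. Leaving out any 1 of the 6 samples gave 182 to 250 genes up and 56 to 75 down.

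**Figure D1:**
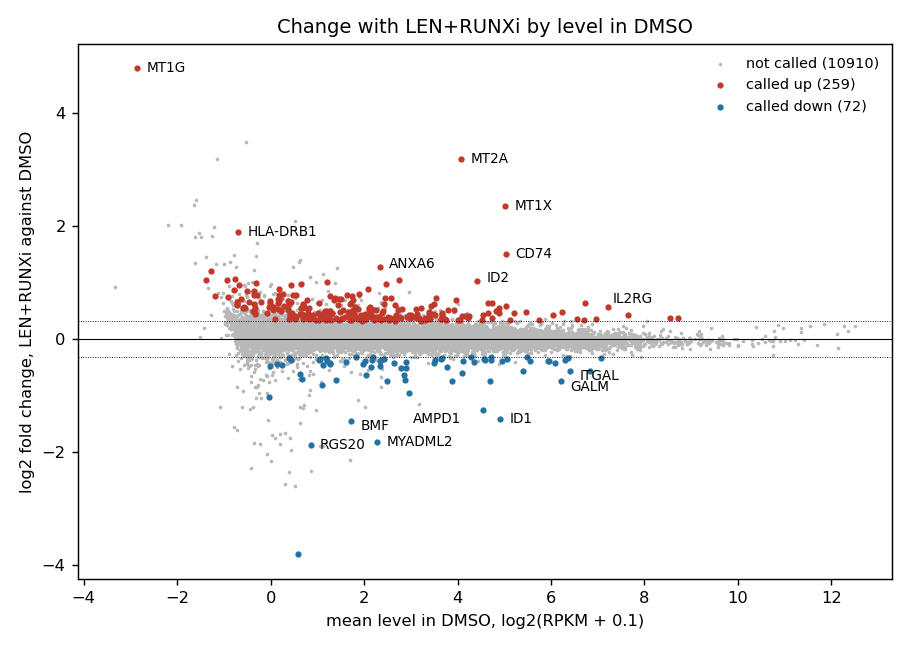
Log2 fold change of LEN+RUNXi against DMSO (y axis) by mean level in DMSO on the log2(RPKM + 0.1) scale (x axis), 1 point per tested gene. The 259 risen genes are red, the 72 fallen genes blue and the 10910 others grey, with the fold threshold of 0.32 dotted. Metallothionein and MHC class II genes stand at the top, and the unlabelled blue point at the bottom is MIR6759, which rests on 1 to 4 reads per DMSO sample.

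The largest increases were in metallothionein genes, of which MT2A, MT1X and MT1G rose. Promoters are shown because the metal response elements that MTF1 binds lie there. The sequences are the 250 bases before the gene start in RefSeq (GRCh38.p14), 5′ to 3′ on the strand of the gene, with matches to the cores TGCACNC and TGCGCNC on either strand in capitals. They are those of MT2A, MT1X and the zinc exporter SLC30A1.
MT2A chr16:56608334-56608583 (plus strand): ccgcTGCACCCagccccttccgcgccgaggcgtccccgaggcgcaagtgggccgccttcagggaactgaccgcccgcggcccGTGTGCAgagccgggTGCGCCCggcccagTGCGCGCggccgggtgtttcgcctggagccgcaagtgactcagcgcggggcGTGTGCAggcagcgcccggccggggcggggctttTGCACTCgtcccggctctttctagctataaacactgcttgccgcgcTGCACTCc
MT1X chr16:56682220-56682469 (plus strand): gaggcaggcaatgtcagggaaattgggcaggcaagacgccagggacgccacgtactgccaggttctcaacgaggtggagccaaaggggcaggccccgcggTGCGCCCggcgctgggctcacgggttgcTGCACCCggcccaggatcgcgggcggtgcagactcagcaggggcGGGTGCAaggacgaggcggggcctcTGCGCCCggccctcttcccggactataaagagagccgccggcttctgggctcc
SLC30A1 chr1:211579162-211579411 (minus strand): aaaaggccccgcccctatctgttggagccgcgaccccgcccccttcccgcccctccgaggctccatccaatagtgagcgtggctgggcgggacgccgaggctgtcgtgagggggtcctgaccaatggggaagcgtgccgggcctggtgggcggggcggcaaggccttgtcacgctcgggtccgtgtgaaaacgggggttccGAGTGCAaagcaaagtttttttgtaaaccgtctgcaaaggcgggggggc
The MT2A window held 7 matches, that of MT1X 4 and that of SLC30A1 1. Among 8526 promoters of tested genes, 34.2% held at least 1 match, 0.528% at least 4 and 0.0352% at least 7. The share with at least 1 match was 33.5% among risen genes (57 of 170) and 36.5% among fallen genes (19 of 52). A match is a run of letters and not a measured binding site.

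MT2A was at 15.4, 19.3 and 15.5 RPKM in the 3 DMSO samples and at 155, 149 and 149 RPKM in LEN+RUNXi. The groups were far apart, and the rise was 9.04-fold on the fitted scale (log2 fold change 3.18 with an SE of 0.07, limma adjusted p = 3.6e-10). MT1X went from 36.0, 32.7 and 28.2 to 166, 165 and 164 RPKM, a 5.11-fold rise (log2 fold change 2.35 with an SE of 0.08, limma adjusted p = 2.0e-08). Of these genes MT1G was close to silent in DMSO, with 0 to 1 reads per sample against 16 to 40 in LEN+RUNXi (3.56, 2.42 and 4.84 RPKM). Against a floor of 3 reads in each DMSO library MT1G was at least 13.0-fold higher (adjusted p = 0.00062 from limma). These genes sit in 1 cluster of close paralogs on chromosome 16, MT2A from 56608584 to 56609497 and MT1X from 56682470 to 56684196 (GRCh38.p14), so that the split of reads between members is uncertain. SLC30A1, on chromosome 1 from 211571568 to 211579161, encodes the exporter that carries zinc out of the cell. Its level was 26.4, 27.7 and 25.9 RPKM in DMSO and 40.0, 43.2 and 41.6 RPKM in LEN+RUNXi, a 1.56-fold rise (log2 fold change 0.64 with an SE of 0.05, limma adjusted p = 1.7e-05). MTF1 itself stood at 6.21, 5.61 and 6.08 RPKM in DMSO and 6.05, 5.88 and 5.92 RPKM in LEN+RUNXi, groups that overlapped, and the 95% interval of its log2 fold change was -0.12 to 0.11. Of 19 tested metallothionein and zinc transport genes these 4 rose and 0 fell, with a list median of 0.04.

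All 4 genes were also called higher in LEN+RUNXi than in LEN, where 0.872% of all genes tested were. Against RUNXi 0 of the 19 were called, near the share over all genes tested (3.16% higher and 0.471% lower). MT2A averaged 13.1 ± 0.114 RPKM in LEN, 139 ± 8.03 in RUNXi and 151 ± 3.45 in LEN+RUNXi (SD, n = 3 each). SLC30A1 averaged 26.1 ± 1.37, 41.3 ± 2.11 and 41.6 ± 1.57 RPKM in the same order. The interval of the log2 difference between LEN+RUNXi and RUNXi was -0.04 to 0.28 for MT2A, 0.05 to 0.41 for MT1X and -0.10 to 0.12 for SLC30A1. All 3 LEN+RUNXi samples of MT2A and MT1X lay above RUNXi, differences that missed the threshold (adjusted p = 0.28 and 0.076 from limma).

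MHC class II genes formed the next group by size of change. HLA-DRB1, the beta chain of the HLA-DR molecule, was at 0.501, 0.606 and 0.440 RPKM in DMSO and 2.31, 1.99 and 2.22 RPKM in LEN+RUNXi, a 3.70-fold rise from a low level (log2 fold change 1.89 with an SE of 0.14, limma adjusted p = 1.1e-05). CD74, the invariant chain that guides class II molecules through the cell, went from 34.6, 32.7 and 31.3 to 102, 92.2 and 86.6 RPKM, a 2.84-fold rise. CIITA, the coactivator that turns class II genes on, was at 2.20, 2.14 and 2.27 RPKM in DMSO and 4.85, 4.38 and 4.40 RPKM in LEN+RUNXi (log2 fold change 1.01 with an SE of 0.06, limma adjusted p = 8.0e-07). In all 3 genes every LEN+RUNXi sample exceeded every DMSO, LEN and RUNXi sample. Of 20 listed members 7 were tested, 3 rose and 0 fell, with a median of 0.31. HLA-DRA and HLA-DQB1 were below the level of testing. HLA-DRA, the alpha chain that pairs with HLA-DRB1, was at 0.196, 0.239 and 0.211 RPKM in DMSO and 0.619, 0.561 and 0.550 RPKM in LEN+RUNXi, and HLA-DQB1 at 0.169, 0.190 and 0.118 RPKM in DMSO and 0.475, 0.383 and 0.422 RPKM in LEN+RUNXi. The LEN+RUNXi samples of both lay above DMSO, with no test. HLA genes are highly polymorphic paralogs, and reads that match several of them make single values uncertain. The deposited length of HLA-DRA, 10240 bases, exceeds its span on chromosome 6 from 32439887 to 32445046 (GRCh38.p14), which lowers its RPKM. HLA-DRA had 46 to 74 reads per DMSO sample and 94 to 123 per LEN+RUNXi sample, so its RPKM understates its level. The deposited lengths of HLA-B and HLA-C (10095 and 11093 bases) exceed their spans too. That of HLA-DRB1, 6610 bases, does not. HLA-DRB1 had 62 to 121 reads per DMSO sample and 215 to 299 per LEN+RUNXi sample, so its low level in RPKM depends on that length.

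These 3 genes also exceeded both single agents. CIITA averaged 2.20 ± 0.0626 RPKM in DMSO, 2.95 ± 0.0515 in LEN, 3.19 ± 0.111 in RUNXi and 4.54 ± 0.265 in LEN+RUNXi (SD, n = 3 each). LEN+RUNXi exceeded LEN by 0.61 on the log2 scale (adjusted p = 0.00010 from limma) and RUNXi by 0.50 (adjusted p = 0.00061 from limma). These comparisons share the LEN+RUNXi samples and are not independent of each other.

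MHC class I changed less. HLA-B was at 14.2, 14.2 and 12.8 RPKM in DMSO and 20.2, 19.2 and 19.7 RPKM in LEN+RUNXi, a 1.43-fold rise without overlap (log2 fold change 0.52 with an SE of 0.04, limma adjusted p = 1.9e-05). HLA-C followed at 6.54, 6.30 and 5.82 RPKM in DMSO and 7.94, 7.88 and 7.58 RPKM in LEN+RUNXi (log2 fold change 0.32, adjusted p = 0.012 from limma), close to the fold threshold. It was not called with median-ratio or quantile scaling or a pseudocount of 1 (1 added to RPKM in place of 0.1). The call was also lost without DMSO replicate 3 or LEN+RUNXi replicate 1 or 2 (log2 fold changes of 0.28 to 0.36 with 1 library left out). A range in parentheses after a lost call has that meaning from here on. Settings other than left-out libraries are named for some lost calls only. B2M, the light chain that all class I molecules need, had a log2 fold change of 0.09 with an interval of -0.05 to 0.22. Of 14 tested class I presentation genes 2 rose and 0 fell (median 0.12), against 2.3% and 0.641% of all genes tested. The list had 1 risen gene without DMSO replicate 3 and 3 without DMSO replicate 1 or 2. Relative to LEN, 0 of the 14 were called, near the share over all genes tested (0.872% higher and 0.81% lower). Relative to RUNXi, 3 were higher and 0 lower (3.16% and 0.471% of all genes tested).

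Interferon response genes rose in part and by smaller factors. Windows of IFI6 and IFIH1 are shown as those of the named interferon genes with most matches to the core of the interferon-stimulated response element, searched as GAAA, any 2 bases and GAAA on either strand and marked in capitals (RefSeq, GRCh38.p14, 250 bases before the gene start). In the IFIH1 window 2 of the matches overlap.
IFI6 chr1:27672193-27672442 (minus strand): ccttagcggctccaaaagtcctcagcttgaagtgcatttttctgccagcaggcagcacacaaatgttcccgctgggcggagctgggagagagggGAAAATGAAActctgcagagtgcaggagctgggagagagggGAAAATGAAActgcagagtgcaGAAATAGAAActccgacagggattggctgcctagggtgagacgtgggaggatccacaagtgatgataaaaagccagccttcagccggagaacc
IFIH1 chr2:162318685-162318934 (minus strand): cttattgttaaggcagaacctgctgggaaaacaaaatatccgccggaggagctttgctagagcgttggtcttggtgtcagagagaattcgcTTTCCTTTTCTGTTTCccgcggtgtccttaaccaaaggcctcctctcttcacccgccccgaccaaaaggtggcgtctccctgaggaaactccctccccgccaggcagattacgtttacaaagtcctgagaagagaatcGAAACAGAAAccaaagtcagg
Each window held 3 matches. NMI, EPSTI1 and IFITM1 held 1 match each in theirs. A match was found in 6.47% of the promoters of risen genes (11 of 170), in 0 of 52 promoters of fallen genes and in 2.06% of all 8526.

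Among 25 tested antiviral effectors 5 rose and 0 fell (2.3% and 0.641% of all genes tested), and the median log2 fold change was 0.24. IFI6, an interferon-induced protein of mitochondria, was at 0.519, 0.654 and 0.874 RPKM in DMSO and 1.08, 1.49 and 1.31 RPKM in LEN+RUNXi (log2 fold change 0.85 with an SE of 0.18, limma adjusted p = 0.016). IFITM1, a membrane protein that blocks virus entry, went from 7.42, 5.35 and 4.91 to 11.1, 8.10 and 10.0 RPKM (log2 fold change 0.73 with an SE of 0.17, limma adjusted p = 0.021). The DMSO samples of IFITM1 spread widely, yet its highest DMSO value stayed below its lowest LEN+RUNXi value. NMI, a partner of STAT factors, rose by 0.79, EPSTI1 by 0.58 and UBE2L6, the conjugating enzyme for the ubiquitin-like protein ISG15, by 0.52 on the log2 scale. With 1 library left out the list had 3 to 6 risen genes, with 3 without DMSO replicate 2. IFI6 lost its call without DMSO replicate 2 or LEN+RUNXi replicate 2 (0.69 to 1.02), and IFITM1 without DMSO replicate 2 or 3 or LEN+RUNXi replicate 1 or 3 (0.61 to 0.90). With thinned reads 3 of the 25 genes rose, and IFI6 and NMI were not called.

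The sensors and transducers of the same pathway held 8 risen and 0 fallen genes among 28 tested (2.3% and 0.641% of all genes tested), with a median of 0.15. IFIH1 (MDA5), which senses double-stranded RNA in the cytosol, was at 2.57, 2.60 and 2.35 RPKM in DMSO and 4.36, 3.99 and 4.31 RPKM in LEN+RUNXi. TMEM173 (STING), the adaptor of the cytosolic DNA sensor, went from 5.52, 5.55 and 5.10 to 9.67, 8.80 and 8.39 RPKM (log2 fold change 0.72 with an SE of 0.08, limma adjusted p = 0.00039). The factor IRF1, which acts at interferon response elements, was at 9.47, 9.05 and 9.22 RPKM in DMSO and 13.8, 13.7 and 13.2 RPKM in LEN+RUNXi, with a narrow spread in both (log2 fold change 0.55 with an SE of 0.04, limma adjusted p = 3.6e-06). CASP1, the inflammasome protease that matures interleukin-1 beta, went from 1.26, 1.38 and 1.24 to 2.78, 1.96 and 2.21 RPKM (log2 fold change 0.78, adjusted p = 0.020 from limma). IRF8, a factor of B and myeloid cells, rose by 0.58 on the log2 scale, the kinases JAK2 and IKBKE by 0.47 and 0.44, and the sensor NOD1 by 0.35. IFIH1, TMEM173, IRF1 and IKBKE kept their calls with each library left out in turn. Without DMSO replicate 1 or LEN+RUNXi replicate 1 the list held 4 risen genes, and without DMSO replicate 2 or 3 it held 5. CASP1 was lost without DMSO replicate 1, 2 or 3 or LEN+RUNXi replicate 1 (0.65 to 0.89), and IRF8, JAK2 and NOD1 were lost in at least 5 of the 6 such fits (0.49 to 0.71, 0.41 to 0.51 and 0.28 to 0.40). Relative to LEN, 1 of the 28, IFIH1, was higher and 0 lower (0.872% and 0.81% of all genes tested). Relative to RUNXi, 5 were higher and 0 lower (3.16% and 0.471%). CASP1 averaged 2.74 RPKM in LEN, 1.11 in RUNXi and 2.32 in LEN+RUNXi, and IFIH1 3.30, 3.59 and 4.22 RPKM.

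STAT2 and IRF9, which carry the interferon signal into the nucleus, were not called. STAT2 lay higher in all 3 LEN+RUNXi samples (log2 fold change 0.29, adjusted p = 0.0025 from limma), under the fold threshold, and IRF9 had a log2 fold change of 0.22 (adjusted p = 0.087 from limma). Of 11 interferon genes, 10 had at most 3 reads in every sample. The one tested, IFNG, was at 0.790, 0.875 and 0.854 RPKM in DMSO and 0.553, 0.960 and 0.931 RPKM in LEN+RUNXi, groups that overlapped (interval -0.48 to 0.34). Of the chemokine and cytokine list 0 of 7 tested genes were called by limma, 3 had an unadjusted p under 0.05 and voom called 1. The list had 1 risen gene with thinned reads, with quantile scaling or without DMSO replicate 3 or LEN+RUNXi replicate 3. The interferon-induced chemokine CXCL10 was at 0.236, 0.218 and 0.425 RPKM in DMSO and 0.932, 0.553 and 0.443 RPKM in LEN+RUNXi (log2 fold change 0.90 with an SE of 0.27, limma adjusted p = 0.062), and IL10 had a log2 fold change of 0.50 (interval 0.12 to 0.88) and was not called.

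Among guanylate binding protein and apolipoprotein L genes, 2 of 4 tested rose and 0 fell (median 0.35). APOL3 was at 1.69, 1.38 and 1.33 RPKM in DMSO and 3.09, 2.87 and 2.95 RPKM in LEN+RUNXi (log2 fold change 0.98 with an SE of 0.09, limma adjusted p = 6.5e-05). GBP3 went from 2.74, 3.09 and 2.62 to 3.61, 3.76 and 3.63 RPKM (log2 fold change 0.37), near the fold threshold. It was not called after quantile normalization, with thinned reads or with a pseudocount of 1. Relative to LEN, 0 of the 4 were called (0.872% higher and 0.81% lower over all genes tested). Relative to RUNXi, 3 were higher and 0 lower (3.16% and 0.471%). APOL3 averaged 2.80 RPKM in LEN, 2.03 in RUNXi and 2.97 in LEN+RUNXi. Members of the APOBEC3 family of cytidine deaminases on chromosome 22 rose too, APOBEC3B by 0.76 and APOBEC3C by 0.55 on the log2 scale. These paralogs share sequence, and APOBEC3C lost its call without DMSO replicate 1 or 2 or LEN+RUNXi replicate 1 or 3 (0.41 to 0.69).

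**Figure D2:**
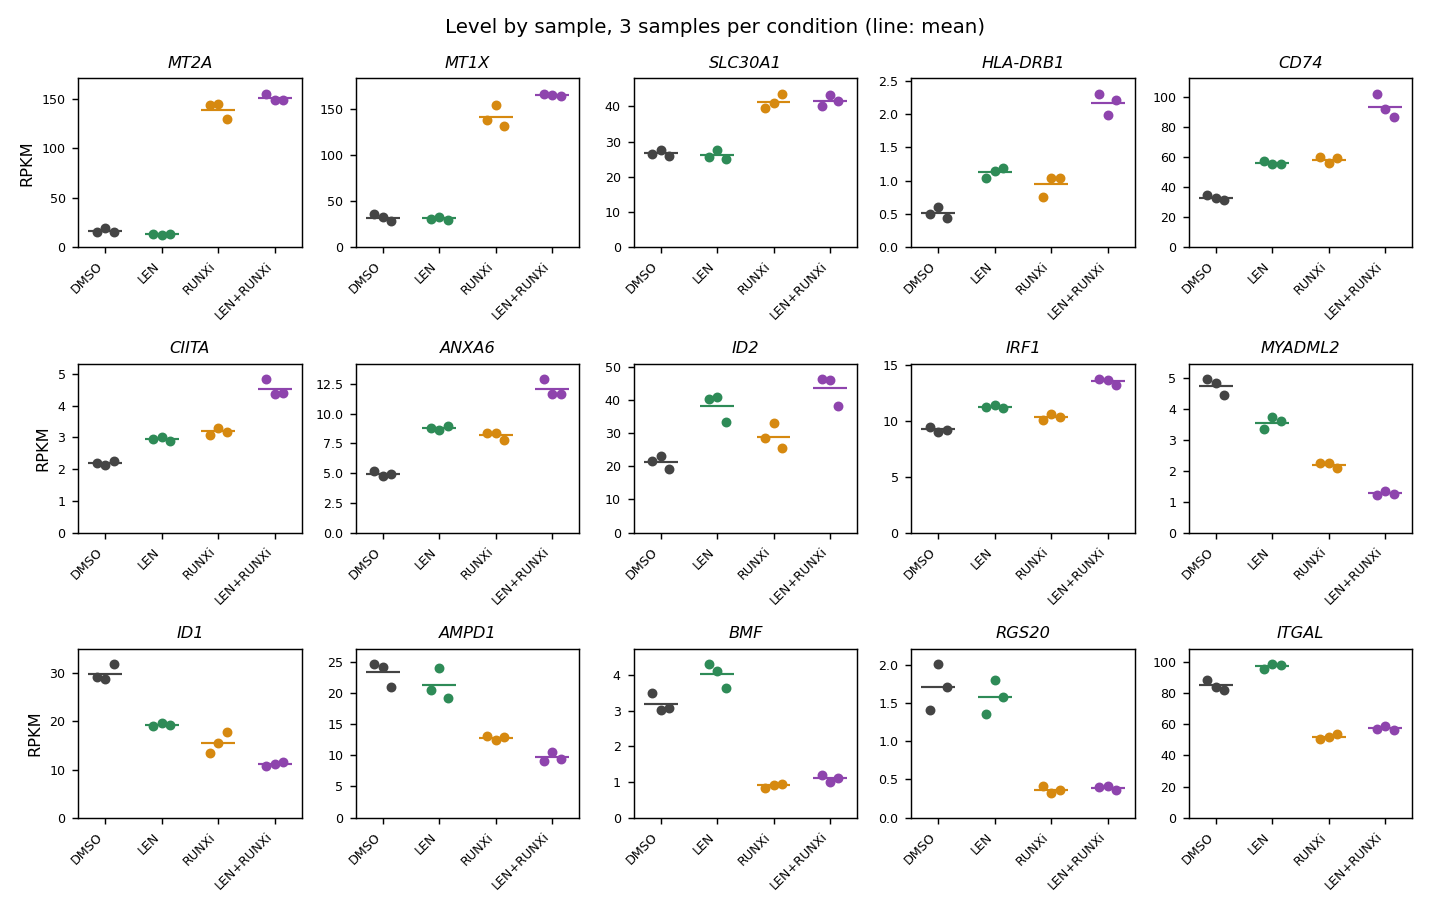
Level in RPKM (y axis, from 0) of 15 genes in the 12 samples, grouped by condition (x axis), with 1 point per sample and a line at the mean of 3. For MT2A, MT1X and SLC30A1 the RUNXi and LEN+RUNXi points lie together above DMSO and LEN, while for CD74, CIITA, ANXA6 and HLA-DRB1 the LEN+RUNXi points lie above the other 3 conditions. ID1 and MYADML2 are lowest in LEN+RUNXi.

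Genes of the NF-kappaB pathway rose by modest factors. Of 18 tested subunits and feedback genes 4 rose and 0 fell, with a median of 0.18, and the 4 calls were made with each library left out in turn and with both other scalings. RELB, a subunit of the noncanonical dimer, was at 28.8, 27.7 and 27.9 RPKM in DMSO and 40.1, 42.0 and 36.9 RPKM in LEN+RUNXi (log2 fold change 0.49 with an SE of 0.07, limma adjusted p = 0.0017). NFKB2, which encodes its partner, went from 45.7, 44.0 and 41.5 to 63.2, 62.6 and 56.4 RPKM (log2 fold change 0.47 with an SE of 0.05, limma adjusted p = 0.00014). NFKBIE, an inhibitor that holds NF-kappaB in the cytosol, rose by 0.49 and BIRC3, a target that restrains the noncanonical kinase, by 0.43 on the log2 scale. All 4 were called higher than in LEN, where 0.872% of all genes tested were. Against RUNXi 0 of the 18 were called, near the share over all genes tested (3.16% higher and 0.471% lower). The interval of the log2 difference from RUNXi was -0.0044 to 0.31 for RELB and 0.03 to 0.24 for NFKB2. For NFKBIE it was 0.02 to 0.34 and for BIRC3, whose mean was below that in RUNXi, -0.29 to 0.05. Sites with GGG, any 2 bases and TTTCC, on either strand, were in 5.29% of the promoters of risen genes (9 of 170), 3.85% of those of fallen genes (2 of 52) and 1.98% of all 8526. Of 8 tested AP-1 factors 0 were called by limma or voom and 0 had an unadjusted p under 0.05, with JUN at a log2 fold change of 0.19 (interval -0.02 to 0.39) and JUNB at 0.19.

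Cell surface and signaling genes moved in both directions. IL2RG, the common receptor chain of the interleukin-2 family, was among the most abundant risen genes, at 148, 147 and 149 RPKM in DMSO and 216, 219.8 and 221 RPKM in LEN+RUNXi (log2 fold change 0.57 with an SE of 0.04, limma adjusted p = 1.7e-05). JAK3, the kinase bound to that chain, went from 1.04, 1.07 and 0.996 to 1.72, 2.06 and 1.74 RPKM (log2 fold change 0.77, adjusted p = 0.0014 from limma). IL6R, the receptor for the myeloma growth factor interleukin-6, rose by 0.40, the homing receptor CXCR4 by 0.36 and GPRC5D, a surface target of myeloma therapy, by 0.33 on the log2 scale. IL6R averaged 19.8 RPKM in LEN, 24.5 in RUNXi and 23.5 in LEN+RUNXi, and CXCR4 96.7, 118 and 121 RPKM. ITGAL, the alpha chain of the integrin LFA-1, fell from 88.7, 84.1 and 82.0 to 57.2, 58.8 and 56.6 RPKM (log2 fold change -0.56 with an SE of 0.04, limma adjusted p = 3.6e-06). In all, 4 of 29 tested surface antigens rose and 1 fell (median 0.11), against 2.3% and 0.641% of all genes tested. GPRC5D, near the threshold, was not called with quantile scaling, with thinned reads or without DMSO replicate 3 (0.28 to 0.36). Of 8 costimulation, checkpoint and death receptor genes 0 were called by limma or by its voom variant and 2 had an unadjusted p under 0.05, with the largest log2 fold changes in CD276 (0.27) and TNFRSF1A (0.25). ITGAL was at 97.4 ± 1.64 RPKM in LEN and 52.1 ± 1.66 RPKM in RUNXi (SD, n = 3 each), and LEN+RUNXi lay below LEN by a log2 difference of -0.76 (adjusted p = 2.3e-07 from limma). Its difference from RUNXi was 0.14 with an interval of 0.06 to 0.22, and that was not called.

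Regulators of the cytoskeleton and of G proteins followed. FAM101B (RFLNB in RefSeq), a filamin-binding refilin, was at 5.98, 4.84 and 5.42 RPKM in DMSO and 11.6, 10.2 and 10.2 RPKM in LEN+RUNXi (log2 fold change 0.97 with an SE of 0.10, limma adjusted p = 0.00011), and was the 1 gene called of 21 actin, filamin and tubulin genes. LGALS1, a galectin of that list, had a log2 fold change of 0.30 (adjusted p = 0.078 from limma), under the fold threshold. VAV1, a guanine nucleotide exchange factor of blood cells, went from 23.9, 23.1 and 23 to 32.1, 30.3 and 31.3 RPKM, a small change with a narrow spread (log2 fold change 0.42 with an SE of 0.03, limma adjusted p = 1.3e-05). RHOC and GNG7 rose by 0.35 and 0.32 and RGS16, which shortens G protein signals, fell by 0.37 on the log2 scale. The last 3 were close to the threshold. Of 22 tested regulators of small GTPases and G proteins, 3 rose and 1 fell (median 0.10), against 2.3% and 0.641% of all genes tested. In that list 1 rose without DMSO replicate 3 or LEN+RUNXi replicate 3. GNG7 was not called with median-ratio or quantile scaling, with thinned reads or with a pseudocount of 1. Its call was also lost without DMSO replicate 3 or LEN+RUNXi replicate 3 (0.31 to 0.33). RHOC was not called with median-ratio scaling or without DMSO replicate 2 or 3 or LEN+RUNXi replicate 1 or 3 (0.26 to 0.43). RGS16 was not called without DMSO replicate 1 or 3 or LEN+RUNXi replicate 1 or 2 (-0.45 to -0.32). TMSB4X, an actin-binding peptide and the most abundant risen gene, was at 426, 414 and 415 RPKM in DMSO and 549, 519.7 and 550.3 RPKM in LEN+RUNXi. LOC102724908, another abundant gene, rose by 0.42 on the log2 scale.

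ANXA6, a calcium-dependent membrane-binding annexin on chromosome 5 from 151100706 to 151157779, showed the largest rise outside the groups above. It was at 5.22, 4.74 and 4.90 RPKM in DMSO, 8.82, 8.65 and 9 in LEN, 8.37, 8.41 and 7.79 in RUNXi and 12.9, 11.7 and 11.7 in LEN+RUNXi, and the LEN+RUNXi samples lay above all others (log2 fold change 1.27 with an SE of 0.05, limma adjusted p = 6.7e-08 for the comparison with DMSO). IL4I1, a secreted oxidase of amino acids, went from 0.497, 0.384 and 0.395 to 1.13, 0.783 and 1.06 RPKM and TSPOAP1 from 1.12, 1.37 and 1.30 to 2.46, 2.70 and 2.47 RPKM. ADA, the adenosine deaminase of purine breakdown, was among the abundant risen genes at 110.3, 104 and 105 RPKM in DMSO and 169, 158 and 168 RPKM in LEN+RUNXi (log2 fold change 0.64 with an SE of 0.03, limma adjusted p = 8.0e-07). The repressor HES6 went from 371, 369 and 374 to 494, 491 and 463 RPKM. CXorf65, which lies 664 bases from IL2RG on the X chromosome, rose by 1.21 on the log2 scale from 0.380, 0.303 and 0.258 RPKM. Among noncoding genes LINC00173 was at 0.572, 0.479 and 0.422 RPKM in DMSO and 1.28, 1.01 and 1.1 RPKM in LEN+RUNXi (log2 fold change 1.06 with an SE of 0.20, limma adjusted p = 0.0073). LOC105371056 and MIR186 were less certain, with log2 fold changes of 1.05 and 1.05 that lost their calls without DMSO replicate 1, 2 or 3 or LEN+RUNXi replicate 1 or 3 (0.76 to 1.25) and without DMSO replicate 1 or LEN+RUNXi replicate 2 or 3 (0.74 to 1.22). Reads at MIR186 lie inside another gene, and polyadenylated RNA does not measure the mature microRNA.

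Of the transcription factors of B and plasma cells, 2 of 27 tested rose and 1 fell (2.3% and 0.641% of all genes tested), with a median of -0.03. ID2 and ID1, inhibitors that keep basic helix-loop-helix factors from DNA, moved in opposite directions. ID2, on chromosome 2 from 8682056 to 8684461, was at 21.7, 23.2 and 19.1 RPKM in DMSO and 46.5, 46.2 and 38.2 RPKM in LEN+RUNXi (log2 fold change 1.03 with an SE of 0.11, limma adjusted p = 0.00027). ID1, on chromosome 20 from 31605289 to 31606510, fell from 29.2, 28.7 and 31.9 to 10.7, 11.2 and 11.6 RPKM, to 37.4% of DMSO on the fitted scale (log2 fold change -1.42 with an SE of 0.08, limma adjusted p = 1.1e-06). BHLHE40, a repressor of the same helix-loop-helix class, rose by 0.41 on the log2 scale. It averaged 4.95 RPKM in LEN, 6.02 in RUNXi and 5.86 in LEN+RUNXi. ID1 was at 19.3 ± 0.364 RPKM in LEN and 15.5 ± 2.14 RPKM in RUNXi (SD, n = 3 each), and LEN+RUNXi lay below both by 0.79 (adjusted p = 0.00021 from limma) and 0.47 (adjusted p = 0.0059 from limma) on the log2 scale. ID2 in LEN+RUNXi exceeded RUNXi by 0.59, while its difference from LEN was 0.19 with an interval of -0.06 to 0.44.

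CRBN, which encodes cereblon, was at 5.94, 5.65 and 6.09 RPKM in DMSO and 5.54, 6.19 and 6.79 RPKM in LEN+RUNXi, and the groups overlapped (log2 fold change 0.06, interval -0.08 to 0.20). IKZF1 was at 13.5, 13.3 and 13.0 RPKM in DMSO and 15.5, 15.8 and 14.1 RPKM in LEN+RUNXi, without overlap but under the fold threshold (log2 fold change 0.19, adjusted p = 0.027 from limma). IKZF3 had an interval of -0.17 to 0.05. The lenalidomide-dependent degradation of IKZF1 and IKZF3 acts on the proteins, which RNA does not measure. ZNF692, another zinc finger substrate of the drugged ligase, was the 1 called gene of 18 tested in that list, at 13.4, 13.7 and 13.1 RPKM in DMSO and 17.1, 17.1 and 16.5 RPKM in LEN+RUNXi, just past the fold threshold. It was not called with median-ratio or quantile scaling, with a pseudocount of 1, with thinned reads or without DMSO replicate 3 (0.31 to 0.35).

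Of 15 RUNX factors and cofactors 0 were called by limma or voom, and 5 had an unadjusted p under 0.05, where 2659 of all 11241 genes had one. RUNX1 was at 7.85, 8.22 and 7.90 RPKM in DMSO and 7.04, 7.17 and 6.22 RPKM in LEN+RUNXi (log2 fold change -0.23, adjusted p = 0.037 from limma), a difference under the fold threshold. The intervals of RUNX2, RUNX3 and CBFB were -0.17 to 0.02, 0.05 to 0.28 and -0.11 to 0.13. The corepressor TLE1 had the highest fold change of the list at 0.29 (adjusted p = 0.025 from limma). IRF4 was at 207, 222 and 198 RPKM in DMSO and 196, 212 and 177 RPKM in LEN+RUNXi (interval -0.24 to 0.04), MYC at 219, 209 and 195 RPKM in DMSO and 215, 217 and 194 RPKM in LEN+RUNXi (interval -0.12 to 0.13), and both overlapped. PRDM1 and XBP1 had intervals of -0.17 to 0.06 and -0.13 to 0.05. The log2 fold changes of CRBN, CBFB, MYC and MTF1 lay so near 0 that their sign turned when single libraries were left out, and for CBFB and MYC also with median-ratio scaling. The RUNX core TGTGGT was in 5.88% of the promoters of risen genes (10 of 170), 11.5% of those of fallen genes (6 of 52) and 7.3% of all 8526.

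**Figure D3:**
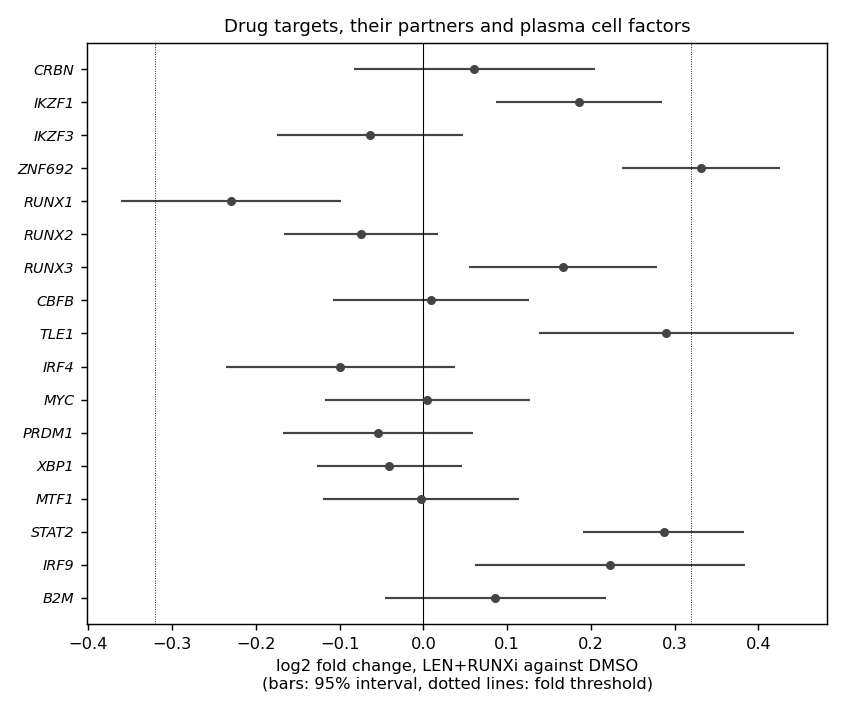
Log2 fold change of LEN+RUNXi against DMSO (x axis) with its 95% interval for 17 genes chosen among drug targets, partners and plasma cell or interferon factors (y axis), dotted at the fold threshold of 0.32. The called factors IRF1, ID1, ID2 and BHLHE40 are not drawn. Of the genes drawn ZNF692 has its estimate past the threshold, and the intervals of CRBN, IKZF3, RUNX2, CBFB, IRF4, MYC, PRDM1, XBP1, MTF1 and B2M include 0.

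The genes that fell furthest included regulators of signaling, metabolism and apoptosis. RGS20, a brake on G protein signals, was at 1.41, 2.01 and 1.71 RPKM in DMSO and 0.394, 0.412 and 0.360 RPKM in LEN+RUNXi, 27.3% of DMSO on the fitted scale (log2 fold change -1.87 with an SE of 0.15, limma adjusted p = 1.7e-05). MYADML2, a membrane protein gene on chromosome 17 from 81939645 to 81947233, went from 4.98, 4.84 and 4.46 to 1.22, 1.35 and 1.26 RPKM, 28.3% of DMSO (log2 fold change -1.82 with an SE of 0.07, limma adjusted p = 2.6e-08). BMF, a BH3-only protein that promotes apoptosis, was at 3.5, 3.01 and 3.07 RPKM in DMSO and 1.21, 1.01 and 1.12 RPKM in LEN+RUNXi (log2 fold change -1.44 with an SE of 0.09, limma adjusted p = 3.6e-06) and was the 1 called gene of the 13 tested BCL2 family members. In each of the 3 genes the groups were widely apart. The antiapoptotic BCL2 had a log2 fold change of 0.29 (adjusted p = 0.012 from limma), under the fold threshold. AMPD1, which deaminates AMP, fell from 24.6, 24.3 and 21.0 to 9.09, 10.5 and 9.42 RPKM (log2 fold change -1.26 with an SE of 0.08, limma adjusted p = 4.3e-06), and NRAS, which lies 8923 bases from it on chromosome 1, fell by 0.42 on the log2 scale. GALM, an aldose epimerase, was the most abundant of the 12 genes with the largest fall and a mean of at least 10 reads, at 76.4, 71.1 and 74.1 RPKM in DMSO and 43.2, 44.3 and 44.2 RPKM in LEN+RUNXi (log2 fold change -0.75 with an SE of 0.03, limma adjusted p = 1.2e-07). RGL1, an effector of Ras-like GTPases, went from 25.7, 26.4 and 25.3 to 14.8, 15.8 and 15.4 RPKM, with spreads far below the difference. SAPCD2, TIPARP, PLCL1 and LGALS17A fell by 0.95, 0.74, 0.81 and 0.75 on the log2 scale. LOC102724548, at under 1.2 RPKM, fell by 1.03 and lost its call without DMSO replicate 2 or 3 or LEN+RUNXi replicate 1 or 3 (-1.30 to -0.85). MIR6759 had the lowest fitted value but rests on 1 to 4 reads per DMSO sample and 0 in LEN+RUNXi, too few for a fold, and its call was lost without DMSO replicate 1 or 2 or LEN+RUNXi replicate 1, 2 or 3.

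The 12 genes with the largest fall among those with a mean of at least 10 reads were all called lower than LEN, and 3 of them, MYADML2, ID1 and AMPD1, were also called lower than RUNXi. BMF was at 4.02 ± 0.346 RPKM in LEN, 0.902 ± 0.0657 in RUNXi and 1.11 ± 0.0982 in LEN+RUNXi (SD, n = 3 each), and RGS20 at 1.58 ± 0.222, 0.365 ± 0.0480 and 0.389 ± 0.0265 RPKM. LEN+RUNXi was below LEN by 1.76 for BMF (adjusted p = 6.5e-07 from limma) and by 1.77 for RGS20 on the log2 scale. The interval of the log2 difference from RUNXi was 0.07 to 0.48 for BMF and -0.25 to 0.40 for RGS20. ITGB5 and SDC2 were lower than DMSO and at the same time higher than RUNXi. SDC2 averaged 23.6 RPKM in DMSO, 32.8 in LEN, 11.5 in RUNXi and 18.5 in LEN+RUNXi, and ITGB5 62.2, 72.6, 36.0 and 47.7 RPKM.

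Some of the amino acid and stress genes that ATF4 drives fell. Of 24 tested integrated stress response targets 4 fell and 0 rose, against 0.641% fallen and 2.3% risen among all genes tested. Of the 24, 22 had a fold change below 0, and the median was -0.20, or -0.23 with median-ratio scaling. SLC7A11, the cystine importer, fell from 7.07, 7.34 and 7.32 to 4.41, 4.45 and 4.14 RPKM (log2 fold change -0.73 with an SE of 0.06, limma adjusted p = 1.7e-05). ASNS, which makes asparagine, went from 31.0, 29.5 and 32.3 to 21.9, 23.9 and 25.5 RPKM (log2 fold change -0.38, adjusted p = 0.0093 from limma), PSPH, the last enzyme of serine synthesis, fell by 0.33 and the glycine transporter SLC6A9 by 0.32 on the log2 scale. PYCR1, which makes proline and lies 2345 bases from MYADML2, was among the abundant fallen genes at 122, 113 and 109.5 RPKM in DMSO and 80.0, 76.7 and 75.0 RPKM in LEN+RUNXi (log2 fold change -0.57 with an SE of 0.04, limma adjusted p = 1.3e-05). SLC7A11 and ASNS kept their calls with each library left out. PSPH lost its call without DMSO replicate 1 or 3 or LEN+RUNXi replicate 1 or 2 (-0.41 to -0.27) and SLC6A9 without DMSO replicate 1 or LEN+RUNXi replicate 3 (-0.36 to -0.27). Both lost it with a pseudocount of 1, and SLC6A9 also with thinned reads. Without DMSO replicate 1 the list had 2 fallen genes.

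Genes of the cell cycle held 1 risen and 2 fallen members, against 2.3% risen and 0.641% fallen among all genes tested. Of 44 replication and G1/S genes 1 rose and 1 fell, and of 40 mitosis genes 0 rose and 1 fell, with medians of -0.0025 and -0.08. Of the mitosis genes 33 had a fold change below 0 and 20 an unadjusted p under 0.05, where 2659 of all 11241 genes had one. The E cyclins moved apart, with CCNE2 at 1.79, 2.50 and 2.33 RPKM in DMSO and 2.92, 3.19 and 3.30 RPKM in LEN+RUNXi, and CCNE1 at 22.3, 24.1 and 25.2 RPKM in DMSO and 18.6, 16.9 and 19.5 RPKM in LEN+RUNXi (log2 fold changes of 0.50 and -0.37). CENPF, a kinetochore protein, fell from 77.3, 78.9 and 78.3 to 64.2, 62.4 and 54.9 RPKM (log2 fold change -0.37 with an SE of 0.06, limma adjusted p = 0.0027), and the abundant TOP2B and CKAP2 by 0.33 and 0.34 on the log2 scale. CCNE2 was not called without LEN+RUNXi replicate 2 or 3 (0.36 to 0.59), CCNE1 without LEN+RUNXi replicate 2 (-0.42 to -0.32), and CENPF, TOP2B and CKAP2 without LEN+RUNXi replicate 3 (-0.42 to -0.30, -0.37 to -0.29 and -0.37 to -0.32). The phosphatase CDC25C had a log2 fold change of -0.31 (adjusted p = 0.071 from limma), under the fold threshold. TP53INP1, a p53 target that lies 29279 bases from CCNE2, rose from 3.23, 3.47 and 4.15 to 6.09, 6.69 and 6.08 RPKM (log2 fold change 0.79 with an SE of 0.09, limma adjusted p = 0.00036), while PLK2 and SESN2 fell by 0.45 and 0.36 and lost their calls with each 1 of the 6 libraries left out (-0.48 to -0.40 and -0.42 to -0.26). The cell cycle inhibitor CDKN1A was at 0.785, 0.653 and 0.837 RPKM in DMSO and 0.449, 0.417 and 0.409 RPKM in LEN+RUNXi, without overlap, and missed the adjusted threshold (log2 fold change -0.70 with an SE of 0.21, limma adjusted p = 0.056).

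Among 31 proteasome subunits, 73 cytosolic ribosomal proteins, 31 nucleolar genes, 45 respiratory chain subunits, 30 endoplasmic reticulum folding genes, 28 oxidative and heat stress genes and 20 glycolysis genes, 0 were called in either direction by limma or by voom. Between 4 (respiratory chain) and 14 (folding genes) of each list had an unadjusted p under 0.05, where 2659 of all 11241 genes had one. Their medians ran from -0.07 to 0.02, and those of the proteasome and the respiratory chain turned from 0.02 to -0.01 with median-ratio scaling. Single members with low adjusted p stayed under the fold threshold, among them the kinase PDK1 (log2 fold change -0.29, adjusted p = 0.00036 from limma), the stress factor NFE2L2 (-0.24, adjusted p = 0.019) and the ribosome assembly factor WDR12 (-0.21, adjusted p = 0.0078). The other largest fold changes of these lists were those of FKBP11 (-0.24) and CREB3L2 (-0.23) among folding genes, of the heat shock protein HSPB1 (0.29), and of PSMC1 (0.22) and PSMD12 (-0.17) of the proteasome. RPL36A (0.34, adjusted p = 0.16) and RPL17 (0.30, adjusted p = 0.20) led the ribosomal proteins by size, POLR1A (-0.20) followed WDR12 among nucleolar genes, NDUFB7 (0.15) and NDUFB8 (0.13) led the respiratory chain by size, and the aldolase ALDOC was at 0.18. Of 35 sterol and fatty acid genes 30 had a fold change above 0 and 1 was called, with a median of 0.11. INSIG1, the feedback brake of sterol synthesis, was at 115, 121 and 137 RPKM in DMSO and 149, 163 and 165 RPKM in LEN+RUNXi (log2 fold change 0.35 with an SE of 0.08, limma adjusted p = 0.015) and lost its call without DMSO replicate 1 or 2 or LEN+RUNXi replicate 2 or 3 (0.30 to 0.43). INSIG1 averaged 120 RPKM in LEN and 181 in RUNXi, against 159 in LEN+RUNXi. Its log2 difference from RUNXi was -0.19 with an interval of -0.35 to -0.02, and that was not called. ACSS2, which makes acetyl-CoA from acetate, had a log2 fold change of 0.43 and missed the adjusted threshold (adjusted p = 0.098 from limma).

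**Figure D4:**
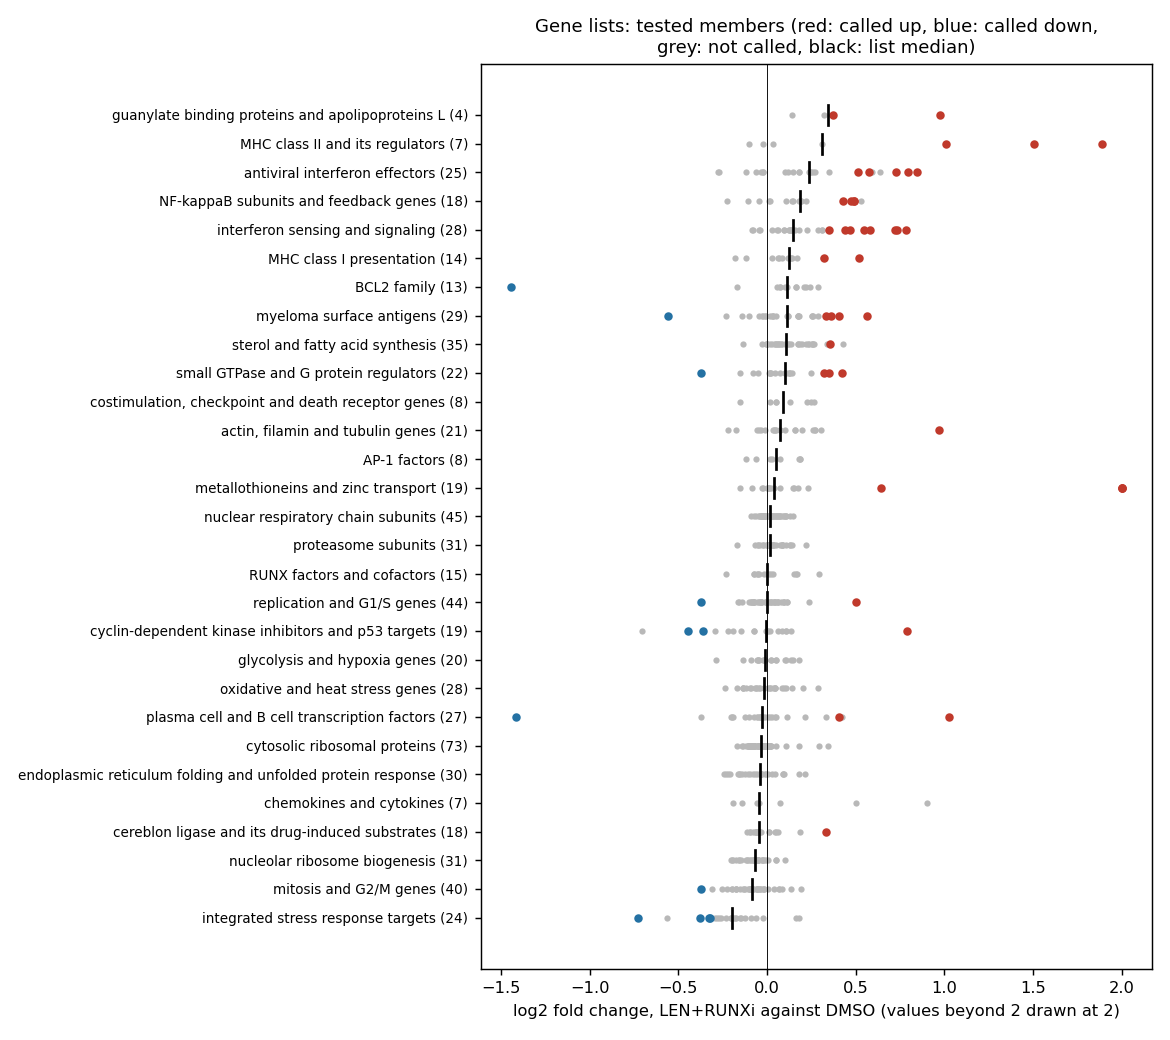
Log2 fold change of LEN+RUNXi against DMSO (x axis) of every tested member of 29 gene lists (y axis, number tested in parentheses), red where risen, blue where fallen and grey where not called, with a black bar at the list median. Values beyond 2 are drawn at 2. Red points appear in MHC, interferon, NF-kappaB and metallothionein lists. They also appear in those of surface antigens, G protein regulators, B and plasma cell factors and several others. The lists of ribosome, proteasome and respiratory chain genes are grey and centred near 0.

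Direct comparisons with each single agent showed where both agents together differed from either. Against LEN, 98 genes were higher (0.872%) and 91 lower (0.81%) in LEN+RUNXi, and against RUNXi 355 were higher (3.16%) and 53 lower (0.471%). Of the 259 genes that rose relative to DMSO, 60 were also called higher than LEN and 108 higher than RUNXi, and 23 exceeded both (0.205% of the genes tested). Of the 72 that fell, 46 were also lower than LEN and 9 lower than RUNXi, and 6 were lower than both (0.0534%). A gene not called here was not shown to be equal between the conditions. The 3 comparisons share the LEN+RUNXi samples.

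The 23 genes above all other conditions included HLA-DRB1, CD74, CIITA and ANXA6. KIFC3, a kinesin of microtubule minus ends, was at 1.69, 1.58 and 1.56 RPKM in DMSO, 1.89, 2.07 and 2.13 in LEN, 1.67, 2.09 and 1.71 in RUNXi and 2.96, 2.58 and 2.50 in LEN+RUNXi. NREP was at 2.72, 2.62 and 2.85 RPKM in DMSO, 3.97, 3.23 and 3.35 in LEN, 3.31, 2.99 and 3.17 in RUNXi and 4.78, 4.04 and 4.79 in LEN+RUNXi. LEN+RUNXi lay above every other sample in both. IGFBP7, which binds insulin-like growth factors, was at a mean of 29.6 RPKM in DMSO, 31.6 in LEN, 31.6 in RUNXi and 43.4 in LEN+RUNXi, and TNFRSF12A, the receptor for the cytokine TWEAK, at 11.1, 11.6, 11.9 and 15.1 RPKM. ABCA7, a lipid transporter, ATG16L2 and the kinase MAPK11 had log2 fold changes relative to DMSO of 0.51, 0.51 and 0.66, and LOC102723566 one of 0.84. MAPK11 lost its call relative to DMSO without DMSO replicate 2 or 3 or LEN+RUNXi replicate 2 (0.55 to 0.77). A gene stored under the spreadsheet date number 43163 in place of its name rose by 0.78, and its identity was not assigned here.

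The 6 genes below all other conditions were MYADML2, ID1, AMPD1, MKX, PLK2 and GJB2. Of these PLK2 lost its call relative to DMSO with each 1 of the 6 libraries left out (-0.48 to -0.40). MKX, a homeobox factor, was at 2.50, 2.53 and 2.62 RPKM in DMSO, 2.17, 2.04 and 2.33 in LEN, 2.36, 2.08 and 2.09 in RUNXi and 1.45, 1.38 and 1.69 in LEN+RUNXi, with LEN+RUNXi below every other sample (log2 fold change -0.73 with an SE of 0.08, limma adjusted p = 0.00038 for the comparison with DMSO). GJB2, a gap junction connexin, fell by 0.35 relative to DMSO on the log2 scale and lost its call without DMSO replicate 2 or 3 or LEN+RUNXi replicate 1 or 3 (-0.44 to -0.28). MYADML2 averaged 4.76 ± 0.267 RPKM in DMSO, 3.56 ± 0.191 in LEN, 2.20 ± 0.105 in RUNXi and 1.27 ± 0.0658 in LEN+RUNXi (SD, n = 3 each). LEN+RUNXi was lower than LEN by 1.41 (adjusted p = 2.3e-07 from limma) and than RUNXi by 0.74 (adjusted p = 0.00020 from limma) on the log2 scale. The count of genes above all conditions was 15 without DMSO replicate 2 and 6 without LEN+RUNXi replicate 1, and that of genes below all conditions ranged from 4 to 8 with 1 library left out.

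**Figure D5:**
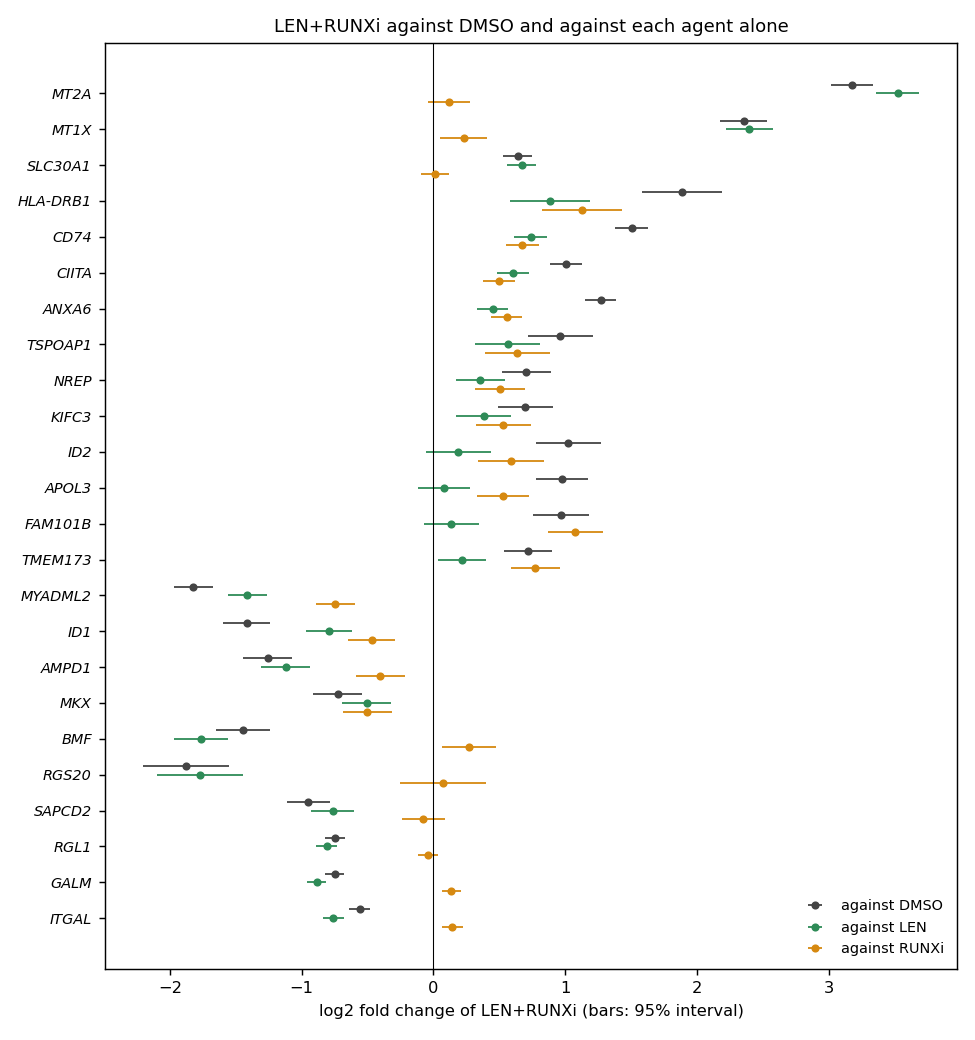
Log2 fold change of LEN+RUNXi (x axis, with 95% intervals) against DMSO (grey), LEN (green) and RUNXi (orange) for 24 called genes (y axis). The orange intervals of MT2A, SLC30A1 and RGS20 and the green intervals of ID2, APOL3 and FAM101B include 0, and for CD74, CIITA, ANXA6, MYADML2 and ID1 all 3 points lie on the same side of 0.

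Reads of some called genes could not be assigned with certainty. CASP1 and CARD16, 4877 bases apart on chromosome 11, rose by 0.78 and 0.46 on the log2 scale. CASP1 lost its call without DMSO replicate 1, 2 or 3 or LEN+RUNXi replicate 1 (0.65 to 0.89) and CARD16 without DMSO replicate 2 or 3 or LEN+RUNXi replicate 1, 2 or 3 (0.41 to 0.51). These paralogs share sequence, as do the APOBEC3 genes, so that reads may be split between them. IRF1 and the long noncoding gene C5orf56 lie 5565 bases apart on chromosome 5 and both rose. They do not overlap in RefSeq, and whether reads of 1 reach the other was not tested. The libraries came from a directional kit, but the strand setting of the counting is not given in the sources used here. Reads of overlapping genes therefore cannot be told apart with certainty.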

How the data were processed

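RNA of 12 OPM-1 samples, 3 for each of DMSO, LEN, RUNXi and LEN+RUNXi, was analysed from the table that the authors deposited. The authors mapped reads to GRCh38 with STAR (their processing notes also list FastQC, Cuffnorm and DESeq2) and deposited RPKM values for 38478 genes beside gene lengths, with versions and the strand setting not given in the sources used here. In each sample, value times length was a whole multiple of 1 step (100% of values within 0.05 read), which gave the reads per gene. The files' 28 date numbers in place of gene names were kept. Coordinates are from RefSeq (GRCh38.p14), matched for 31778 symbols directly and 1429 by synonym, with 5271 not matched. Promoters were given for 8526 of the 11241 tested genes.

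Values were tested as log2(RPKM + 0.1) with limma 3.58.1 in R 4.3.3, with 1 mean per condition over all 12 samples, a variance trend (8 residual degrees of freedom) and Benjamini-Hochberg adjustment over 11241 genes. A call needed both an adjusted p no higher than 0.05 and a log2 fold change of 0.32 or more in size, and intervals are 95% intervals of single genes. Members and gene lists were chosen with earlier results of these data known, so lists carry counts and medians and no test. Cell type markers are those of the marker lists. Other genes were named by rule: per direction the 12 largest changes with at least 10 mean reads, up to 4 called members per list and the 2 largest changes where fewer than 2 were called, 25 genes of the targets and pathways, per direction the 5 called genes of highest level, and 6 more that differed from all 3 other conditions, of which 1 gene is not reported here. MIR6759, JAK3, UBE2L6, GPRC5D, PECAM1, JAK2, IKBKE, NOD1, CDKN1A, ITGB5, SDC2, CARD16, C5orf56, NRAS, APOBEC3B, APOBEC3C, ADA, GJB2, HLA-DQB1, IGFBP7, TNFRSF12A, MAPK11, ATG16L2 and ABCA7 were chosen after their values were seen, as were the promoters shown. Reads of equal condition varied beyond counting noise (chi-square over its degrees of freedom between 1.81 and 8.93). On simulated data 93 of 100 planted changes of 1.5-fold and 99 of 100 of 2-fold were called, with 7 other genes of 11245. Changes were planted only in genes with a mean of at least 100 reads, and all genes shared 1 fixed dispersion. No change under 1.5-fold was planted, although 71.4% of the risen and 72.2% of the fallen genes changed less than that. The simulation thus does not give the sensitivity for such changes or for genes with fewer reads. Alternatives were pseudocounts of 1 and 0.01, other level filters, median-ratio and quantile scaling, a fit to both compared conditions, a replicate block, no variance trend, other fold thresholds, limma's voom on the reads, thinning to 16352548 reads and leaving out each sample. A threshold of exactly 1.25-fold was added after seeing the data. Python 3.11.15, numpy 2.4.6, pandas 2.3.3 and matplotlib 3.10.9 were used.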

Additional observations from a re-analysis of the deposited data

How the results depend on the processing

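The direction of every called gene named held under each alternative with a value, and of 99 such genes 37 were called under all of them, the 1.5-fold threshold included. With a pseudocount of 1, 47 genes fell and 13 exceeded all other conditions. Testing any RPKM above 0 left 12 genes above all other conditions, and median-ratio scaling 14. Quantile normalization gave 111 genes down and 9 above all other conditions. Without a fold threshold 634 genes rose, 337 fell, 82 exceeded and 35 lay below all other conditions, and at 1.5-fold these counts were 74, 20, 2 and 1. A threshold of exactly 1.25-fold, chosen after seeing the data, gave 259 up and 69 down. With 1 library left out, 182 to 250 genes rose, 56 to 75 fell, 6 to 21 exceeded all other conditions (6 without LEN+RUNXi replicate 1, 15 without DMSO replicate 2) and 4 to 8 lay below them. Voom called 306 up and 78 down. The fit to the compared conditions called 228 and 65 and gives no comparison with single agents. The labels share replicate numbers, but equally numbered samples deviated together only weakly (mean r of 0.052 over all 18 pairs, -0.027 to 0.155, and 0.014 over the 3 LEN+RUNXi and DMSO pairs). The mean over 36 pairs of unequal number was -0.026. Deviations from a condition mean sum to 0, so that value follows largely from the first and is no separate reference. When the replicate number entered the fit as a block, 288 genes rose, 80 fell, 29 exceeded and 6 lay below all other conditions. Signs turned for 5 genes that were not called. With median-ratio scaling CBFB was at -0.020 and MYC at -0.024. With 1 library left out, IFNG ranged from -0.19 to 0.16 (above 0 without LEN+RUNXi replicate 1), CRBN from -0.0088 to 0.13 (below 0 without LEN+RUNXi replicate 3), CBFB from -0.039 to 0.058 (below 0 without DMSO replicate 1 or LEN+RUNXi replicate 2), MYC from -0.039 to 0.055 (below 0 without DMSO replicate 3 or LEN+RUNXi replicate 1 or 2) and MTF1 from -0.047 to 0.027 (above 0 without DMSO replicate 1 or 3 or LEN+RUNXi replicate 2 or 3). The causes were not tested. Depth limits genes near 0.5 RPKM, and the LEN+RUNXi libraries had the lowest median depth.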
